A study of Mus musculus with 6 samples.

Results

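*Klf4*, *Zeb1* and *Esrp1* are 3 of the 55359 gene rows counted in the UN-SCC679 and UN-SCC680 mouse lung squamous carcinoma cell lines. They were chosen by name as regulators of the epithelial and mesenchymal state, with the difference between the lines already known. Their levels and fold changes between the lines are therefore given as a description, with no test. Both lines were derived from squamous lung tumors of A/J mice whose skin was painted with the carcinogen N-nitroso-tris-chloroethylurea (NTCU). They were then grown in immunodeficient Rag2-/- IL2Rg-/- mice and in A/J mice before the working lines were set up. The paper describes both lines as fusiform and adherent, and reports a gradual loss of the squamous phenotype with passages. No treatment or allele was set apart between the groups, and polyA RNA of 3 libraries per line was sequenced. Each group is 1 cell line, so what is particular to a line and what goes with its tumor of origin cannot be told apart. The labels do not say whether the 3 libraries of a line came from separate cultures, so p-values cover only the spread between these libraries, which may be technical.

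Epithelial cells hold to each other through junctions, and can lose them in the epithelial-mesenchymal transition (EMT), in which cells become spindle-shaped and motile. ZEB1 is a zinc finger factor that drives this program, binding E-box sequences and shutting off junction genes such as *Cdh1*. ESRP1 is an RNA-binding protein of epithelial cells that sets the epithelial splice forms of many transcripts, and ZEB1 is known to repress its gene. KLF4 is a zinc finger factor of differentiating stratified epithelium, known also as one of the factors that reprogram cells to pluripotency, and it has been described as an activator of *Cdh1*.

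The promoter of *Klf4* is shown because *Klf4* was the only one of these genes that differed several-fold between the lines. *Esrp1* and *Zeb1* had no entry in the RefSeq promoter table used. The 250 bases before the start site (GRCm38.p6, chr4:55532476-55532725, minus strand, 5′ to 3′) are given with GC boxes in capitals, that is GGGCGG or its reverse complement CCGCCC.
Klf4 promoter: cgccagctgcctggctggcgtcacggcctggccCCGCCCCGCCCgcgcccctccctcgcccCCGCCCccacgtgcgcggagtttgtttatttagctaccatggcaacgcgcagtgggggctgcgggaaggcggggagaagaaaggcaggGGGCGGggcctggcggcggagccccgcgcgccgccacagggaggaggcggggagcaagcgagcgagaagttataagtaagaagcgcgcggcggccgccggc
This stretch held 4 GC boxes, the first 2 of which share 1 base, and 32.7% of the 32851 promoters in the table held at least 1 in the same window. Its GC content was 74.0%, above that of 95.1% of the promoters (median 52.4%). The palindrome CACGTG occurred once, and 6.02% of promoters held it. No match was found for CACCTG, the E-box form best known for ZEB1, which 17.2% of promoters held, or for CACCC, which 52.0% held, on either strand.

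The libraries held 3568293 to 4381885 counts. The gene positions in the table mostly differed from those of GRCm38 (mm10), the build named in the submitters' processing notes. Genes used in nearly all cells were close to empty at such moved rows, with 6 counts over the 6 libraries for *Actb*, 4 for *Hprt* and 0 for *Pgk1*, *Ppia* and *Rplp0*. A total of 100 or more counts was reached by 22.9% of 25011 moved rows and by 48.0% of unchanged rows. Only rows whose positions matched were therefore read as their genes here, and whether any single moved row holds its gene's reads was not tested. A row was taken as unchanged when its start or end lay within 10 bases of the RefSeq gene of GRCm38.p6. This held for 527 rows, among them all 3 regulators. These rows lay in stretches of chromosomes 4, 6, 9, 18 and Y, with 339 of them on chromosome 4, which holds *Klf4* and *Esrp1*. Genes at unchanged positions are therefore not a sample of the whole genome. *Klf4* (ENSMUSG00000003032.9, chr4:55527143-55532466, minus strand) was counted over 5 separate exon blocks of 3049 bases in all. *Zeb1* (ENSMUSG00000024238.16, chr18:5591860-5775467, plus strand) was counted over 16 blocks of 10266 bases. *Esrp1* (ENSMUSG00000040728.16, chr4:11331933-11386783, minus strand) had the start and end of the RefSeq gene exactly and was counted over 17 blocks of 6305 bases. No other row overlapped *Klf4* or *Esrp1*. *Zeb1* was overlapped by 3 rows with 44 counts over the 6 libraries, against 11503 of its own. Counting by strand is not stated, so reads of these rows and of *Zeb1* cannot be told apart where they overlap.

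*Klf4* was low in UN-SCC679 and high in UN-SCC680. Its raw counts were 113, 130 and 105 in the UN-SCC679 libraries and 1242, 1235 and 1174 in those of UN-SCC680. After normalization by the TMM method, this was 30.4, 29.6 and 29.4 CPM (counts scaled to a common library size) in UN-SCC679. In UN-SCC680 it was 296, 286 and 277 CPM. Every UN-SCC680 library was above every UN-SCC679 library, with little spread within a line. The same held for *Zeb1* at a fold of 1.07, so this is not particular to *Klf4*. The share of other genes without overlap was not counted. In bulk RNA such as this, fewer cells that express a gene and less of its RNA per cell cannot be told apart. The means were 29.8 ± 0.554 CPM (SD, n = 3) in UN-SCC679 and 286 ± 9.13 CPM (SD, n = 3) in UN-SCC680. The fitted fold of UN-SCC680 over UN-SCC679 was 9.60, a log2 fold change of 3.26 (standard error 0.068). Of the other 267 genes tested at unchanged positions, 3 had a higher log2 fold change than *Klf4*. *Klf4* was the only one of the 26 KLF and SP factors listed that lay at an unchanged position, so related factors such as *Klf5* were not read.

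*Zeb1*, in contrast, was at nearly the same level in both lines. Its raw counts were 1666, 2010 and 1626 in UN-SCC679 and 2041, 2128 and 2032 in UN-SCC680. As normalized values, these were 448, 457 and 455 CPM in UN-SCC679 and 486, 492 and 480 CPM in UN-SCC680. The libraries of the 2 lines did not overlap, but the lines lay close together, at 453 ± 4.52 CPM (SD, n = 3) in UN-SCC679 and 486 ± 6.29 CPM (SD, n = 3) in UN-SCC680. The log2 fold change was 0.10 (standard error 0.038), a fold of 1.07, and it turned to -0.080 when the libraries were scaled on the genes at unchanged positions alone. That scaling lowered the log2 fold changes of all rows by 0.18 in the median, so the direction of the *Zeb1* difference depended on the scaling. In absolute size, 234 of the other 267 genes had a larger log2 fold change than *Zeb1* and 33 a smaller one.

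*Esrp1* was not detectable above counting noise in either line. It had 0, 1 and 2 counts in the UN-SCC679 libraries and 0 counts in each UN-SCC680 library. It was too low for the filter on low counts, so no fold change was fitted, and since both lines were at or under 3 counts no fold is given. Pooled over UN-SCC679, the 3 counts were 0.257 CPM, with a 95% exact Poisson interval of 0.0529 to 0.750 CPM. In a library of UN-SCC680, a count of 0 allows up to 3 counts, that is 0.694 to 0.714 CPM. These limits cover counting error only.

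**Figure D1:**
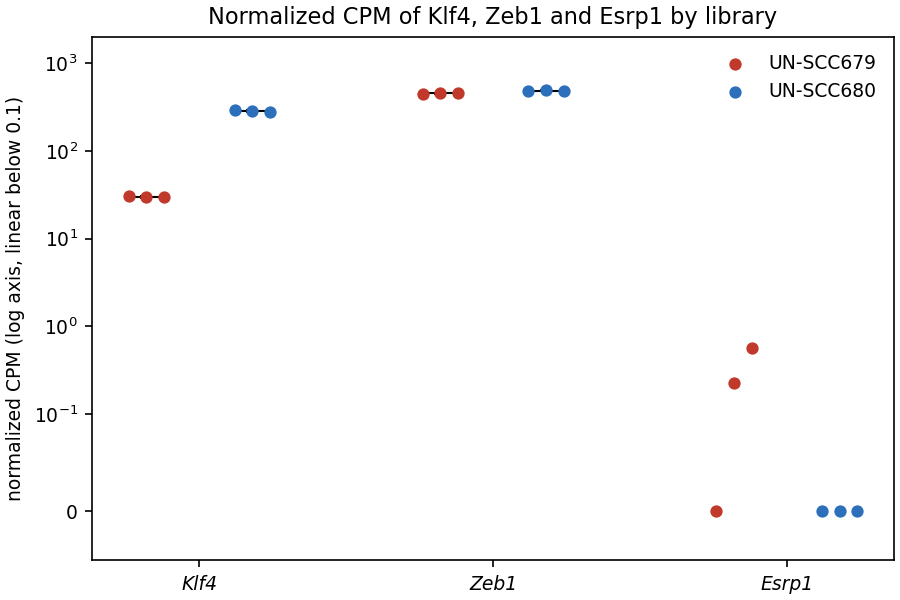
Normalized CPM (vertical axis, log scale above 0.1 and linear below it) of *Klf4*, *Zeb1* and *Esrp1* in each of the 3 libraries of UN-SCC679 (red) and UN-SCC680 (blue), 1 point per library. Black lines give the mean and SD for *Klf4* and *Zeb1*. *Klf4* stands at 29.4 to 30.4 CPM in UN-SCC679 and 277 to 296 CPM in UN-SCC680, *Zeb1* at 448 to 492 CPM throughout, and *Esrp1* below 1 CPM.

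Levels were compared between the genes as CPM per kb of exon. In UN-SCC679, the level of *Zeb1* was 44.2 ± 0.441 CPM per kb and that of *Klf4* 9.77 ± 0.182 CPM per kb (SD, n = 3). In UN-SCC680, *Klf4* stood at 93.9 ± 3.0 CPM per kb and *Zeb1* at 47.3 ± 0.613 CPM per kb (SD, n = 3). The order of the 2 genes was thus opposite in the lines. The ratio of *Klf4* to *Zeb1* was 0.228, 0.218 and 0.217 in the UN-SCC679 libraries and 2.05, 1.95 and 1.95 in the UN-SCC680 libraries. Such a ratio within a library does not change with the scaling of libraries, but it depends on the summed exon length, which for *Zeb1* includes exons of many transcript forms.

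*Zeb1* was of middle level among the genes at unchanged positions in both lines. Between 48.9% and 51.5% of the 268 genes tested at unchanged positions had a lower CPM per kb in a library. For *Klf4* this share was 23.9% to 24.3% in UN-SCC679 and 67.9% to 72.0% in UN-SCC680. *Esrp1* was the lowest of the 3 in both lines. In UN-SCC680 the level of *Zeb1* per kb was at least 423-fold that of *Esrp1*, taking *Esrp1* at 3 counts in each library and scaling by library size. In UN-SCC679 the ratio was 1085, with a 95% interval of 371 to 5261 from the counting error of *Esrp1*.

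**Figure D2:**
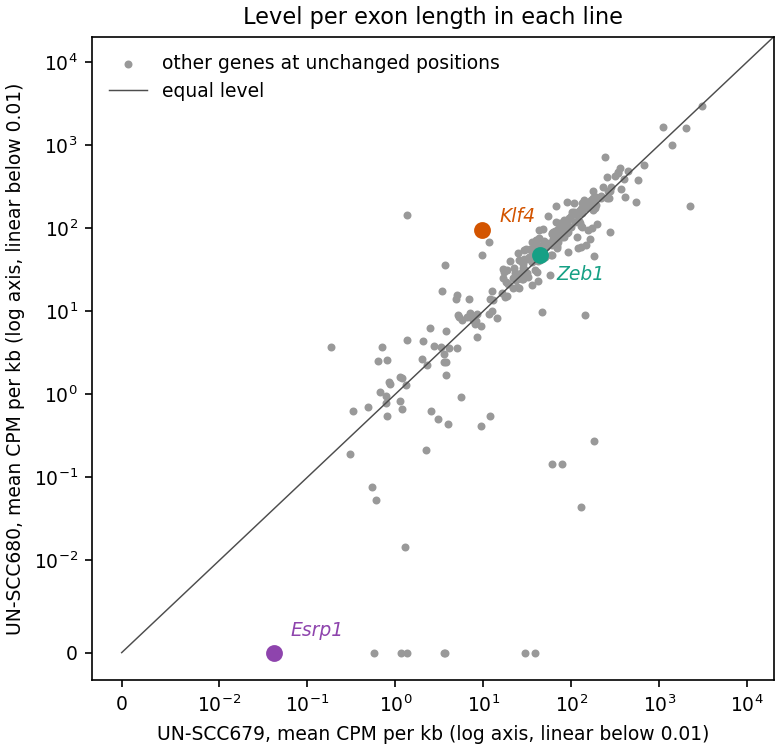
Mean CPM per kb of exon over 3 libraries in UN-SCC679 (horizontal axis) and UN-SCC680 (vertical axis), both log scales above 0.01, for the genes tested at unchanged positions (gray) and for *Klf4*, *Zeb1* and *Esrp1* (colored). *Zeb1* lies on the line of equal level, *Klf4* above it, and *Esrp1* at the lower left with 0 in UN-SCC680.

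The other genes of the 2 programs were then read from lists of epithelial genes, mesenchymal genes, EMT inducers with partners of ZEB1, and splicing regulators. Most list members were not used, since their rows were not at unchanged positions. These include *Cdh1*, *Epcam*, *Vim*, *Snai1* and *Zeb2*, and the squamous markers *Trp63*, *Krt5* and *Krt14*, so the labelled squamous cell type was not checked. The lines were compared with the quasi-likelihood test of edgeR across all 8987 rows that passed the filter, with a Benjamini-Hochberg adjusted p-value under 5e-05 as the threshold. Of all rows, 30.4% passed. Of the 268 genes tested at unchanged positions, 61.6% passed, 39.6% as higher in UN-SCC680 and 22.0% as lower. The counts below are set beside these shares and say nothing particular about a list.

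Of the 66 epithelial genes, 5 others beside *Klf4* and *Esrp1* lay at unchanged positions and 4 of them were tested. One rose in UN-SCC680, 2 fell, and 1 did not pass. *Epb41l4b*, which encodes a FERM domain protein of the cell cortex, rose from 5.59 ± 0.593 to 22.0 ± 1.89 CPM (SD, n = 3), a log2 fold change of 1.98 (standard error 0.18, edgeR adjusted p = 3.49e-13). It lies 1460 kb after *Klf4*. The tested genes on either side of it, *Ctnnal1* and *Ptpn3*, rose too, with log2 fold changes of 1.22 and 2.32. Whether its rise is separate from that of these neighbors was not tested. *Mpp7*, a scaffold of cell polarity complexes, fell by 0.52 on the log2 scale (standard error 0.055, edgeR adjusted p = 4.40e-11). *Cftr*, the chloride channel of apical epithelial membranes, had 95, 135 and 103 counts in UN-SCC679, and no UN-SCC680 library had any. Its level in UN-SCC680 was at least 41.0-fold lower, with 3 counts per library as the floor and scaling by library size. The next tested gene at an unchanged position, *Cttnbp2*, also went from 1.16 to 0.0 CPM per kb. The one before *Cftr*, *Gm13898*, went from 6.96 to 13.8 CPM per kb. *Cdh17*, a cadherin of intestinal epithelium, had 14.7 ± 1.67 CPM in UN-SCC679 and 16.6 ± 2.40 CPM in UN-SCC680 (SD, n = 3), with an adjusted p of 0.298 from edgeR. *Aqp3*, a water channel of basal epithelial cells, was not tested, with at most 1 count in a library. *Klf4* was the only transcription factor of this list at an unchanged position, and the other epithelial genes that passed did not move in 1 direction. The median log2 fold change of the 4 tested was -0.16, beside 0.18 for the genes at unchanged positions and 0.0 for all rows.

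Of the 60 mesenchymal genes, 12 others beside *Zeb1* lay at unchanged positions. The 9 that were tested all passed, 2 higher in UN-SCC680 and 7 lower, and the median log2 fold change was -1.42. The median was -0.89 when 1 more tested gene, lying between unchanged rows, was added. The 4 with the largest falls were *Flnc*, *Lpar1*, *Col1a2* and *Mmp10*. *Flnc* encodes filamin C, an actin crosslinker, and fell by 9.34 on the log2 scale (standard error 0.075, edgeR adjusted p = 1.17e-52), with 33 counts left over the 3 UN-SCC680 libraries. *Lpar1*, a lysophosphatidic acid receptor, went from 615 ± 18.6 to 38.8 ± 3.65 CPM (SD, n = 3), and fell by 3.98 on the log2 scale (edgeR adjusted p = 1.41e-42). *Col1a2*, a chain of type I collagen, went from 28061 ± 1224 to 2267 ± 94.2 CPM (SD, n = 3). The next tested gene at an unchanged position, *Casd1*, went from 39.0 to 0.0 CPM per kb. The one before *Col1a2*, *Bet1*, went from 70.9 to 67.2 CPM per kb. Further along, *Pdk4* went from 129 to 0.0444 CPM per kb and *Slc25a13* from 78.7 to 0.145. Between *Casd1* and these, *Sgce*, *Peg10*, *Ppp1r9a* and *Asb4* were lower in UN-SCC680, while *Pon3* went from 35.9 to 68.2. Past *Slc25a13*, *Shfm1* went from 191 to 234. Whether the *Col1a2* fall is part of a wider change of this stretch was not tested. *Mmp10*, the secreted protease stromelysin-2, fell by 2.58 on the log2 scale (edgeR adjusted p = 6.39e-10). *Met*, the receptor of hepatocyte growth factor, fell by 1.42. The caveolins *Cav1* and *Cav2* fell by 0.36 and 0.34, with *Cav1* at 5453 ± 159 CPM in UN-SCC680 (SD, n = 3).

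The 2 that rose were *Svil* and *Fam3c*. *Svil*, which encodes the actin-binding protein supervillin and lies near *Zeb1*, rose from 313 ± 11.8 to 585 ± 8.51 CPM (SD, n = 3), a log2 fold change of 0.90 (edgeR adjusted p = 1.25e-23). *Fam3c*, a secreted factor described as an inducer of EMT, had a log2 fold change of 0.55 (edgeR adjusted p = 9.20e-14). The other 3, *Col15a1*, *Mmp3* and *Mmp13*, had 8 counts or fewer in a library and were not tested. *Zeb1* therefore stayed near 0.10 while 9 mesenchymal genes differed by 0.34 to 9.34 in absolute log2 fold change. *Col1a2* was the only one of 12 fibroblast markers at an unchanged position, and it was 28061 CPM in the line with the lower *Klf4*. Of 17 immune and endothelial markers only *Pax5* lay at an unchanged position, with 1 count over the 6 libraries. The part of other cells in the *Klf4* difference was not tested.

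Among the 37 EMT inducers and ZEB1 partners, 11 others beside *Zeb1* lay at unchanged positions and 10 were tested. In UN-SCC680, 5 rose, 2 fell and 3 did not pass, with a median log2 fold change of 0.53. Without replicate 2 of UN-SCC679, and also with the scaling on unchanged positions, 6 passed and 4 of them were higher. *Met* and *Fam3c* are also among the mesenchymal genes above. *Tgfbr1*, the type I receptor of TGF-β, a main inducer of *Zeb1*, rose from 284 ± 7.25 to 611 ± 29.6 CPM (SD, n = 3), a log2 fold change of 1.11 (standard error 0.042, edgeR adjusted p = 2.71e-26). *Reck*, counted among the 5 that rose, is an inhibitor of matrix metalloproteinases rather than an EMT inducer or ZEB1 partner. It had a log2 fold change of 2.34 (edgeR adjusted p = 5.62e-23). *Map3k7*, the kinase TAK1 downstream of TGF-β, had one of 0.54 (edgeR adjusted p = 1.76e-18). *Yap1*, a coactivator that works with ZEB1 and TEAD factors, fell by 0.79 on the log2 scale (standard error 0.031, edgeR adjusted p = 6.26e-26). All other genes tested at unchanged positions of chromosome 9, where *Mmp10* also lies, were lower in UN-SCC680 too. On either side of *Yap1*, *Birc2* went from 90.5 to 51.3 CPM per kb and *9230110C19Rik* from 182 to 45.4. Whether the fall is particular to *Yap1* or *Mmp10* was not tested. *Smo*, *Map3k8* and *Gata6* did not pass, with log2 fold changes of 0.05, 0.53 and 0.87.

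Of the 50 splicing regulators, 5 others beside *Esrp1* lay at unchanged positions and 4 were tested. *Ptbp3*, a polypyrimidine tract binding protein, rose from 806 ± 8.87 to 1470 ± 58.7 CPM (SD, n = 3), a log2 fold change of 0.87 (standard error 0.033, edgeR adjusted p = 4.22e-26). *Tnpo3*, which carries SR splicing proteins into the nucleus, had a log2 fold change of 0.08. *Snd1* and *Rbm28* had log2 fold changes of -0.12 and -0.15, and the 3 did not pass the threshold (adjusted p = 0.0366, 7.62e-04 and 3.22e-04 from edgeR). With scaling by library size alone, *Snd1* and *Rbm28* passed as lower. The median of the 4 was -0.02. *Srsf12* was as low as *Esrp1*, with 0, 1 and 2 counts in the UN-SCC679 libraries and none in the others. Unlike *Esrp1*, the 4 tested regulators were at 648 CPM or more in both lines. Splice forms themselves were not measured, since the table holds 1 count per gene.

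**Figure D3:**
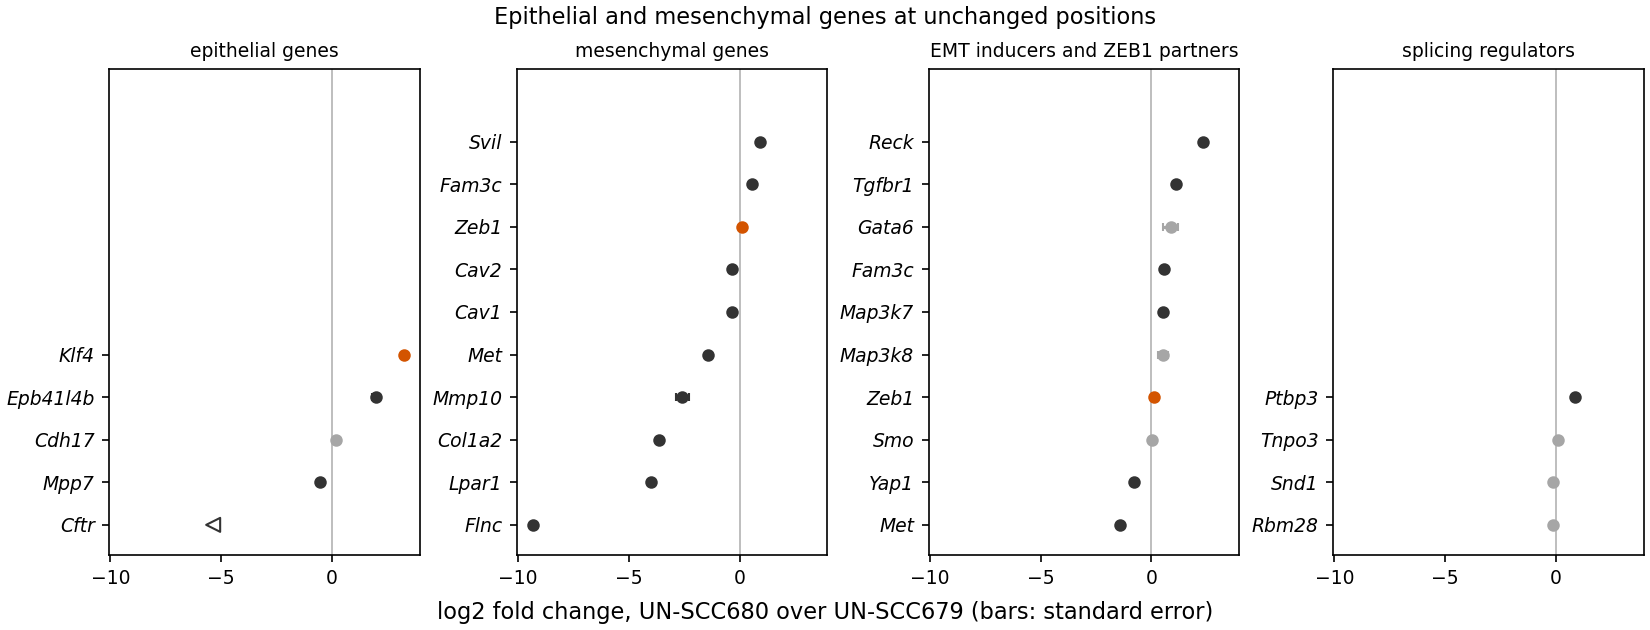
Log2 fold change of UN-SCC680 over UN-SCC679 (horizontal axis, bars give the standard error) for the tested genes at unchanged positions in 4 gene lists, with 1 of the inducers and partners not drawn. Orange marks *Klf4* and *Zeb1*, dark gray the genes past the adjusted p-value of 5e-05 and light gray those not past it. The open triangle is the bound for *Cftr*, -5.36. *Klf4* lies to the right of every other gene shown, and *Zeb1* next to 0 between mesenchymal genes that rose and fell.

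The neighborhood of each gene was described by the 5 nearest tested rows at unchanged positions on each side. Of all 268 genes tested at unchanged positions, 61.6% passed, 39.6% as higher in UN-SCC680 and 22.0% as lower. The counts of neighbors are given beside these shares. Around *Klf4*, 5 of 10 rows passed, 4 as higher in UN-SCC680 and 1 as lower, with a median log2 fold change of 0.10. The nearest row before it, *Rad23b*, which encodes a DNA repair protein, lies 135 kb away and had 2263 ± 55.6 CPM in UN-SCC679 and 2203 ± 47.1 CPM in UN-SCC680 (SD, n = 3). The nearest after it, *Ctnnal1*, a relative of α-catenin, lies 1278 kb away and had a log2 fold change of 1.22. The rows after *Ctnnal1* had log2 fold changes of 1.98 (*Epb41l4b*), 2.32 (*Ptpn3*), -0.06 (*Txn1*) and -3.98 (*Lpar1*). The 5 rows before *Klf4* ran from -0.19 to 0.37. *Klf4* at 3.26 was above all 10, which ran from -3.98 to 2.32. Whether the *Klf4* rise is part of a wider change on the side of *Ctnnal1* was not tested.

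Around *Zeb1*, 4 of 10 rows passed, 3 as higher and 1 as lower, and the log2 fold changes ran from -0.52 to 0.90 with a median of 0.09, close to the 0.10 of *Zeb1*. The 2 nearest, *Zfp438* and *Arhgap12*, had log2 fold changes of -0.47 and -0.08 and did not pass. Around *Esrp1*, 9 of 10 rows passed, 8 as higher and 1 as lower, with a median of 0.34. *Dpy19l4*, 9.80 kb from *Esrp1*, had 607 ± 11.9 CPM in UN-SCC679 and 769 ± 23.3 CPM in UN-SCC680 (SD, n = 3). *1110037F02Rik*, 99.2 kb away on the other side, had 766 ± 22.7 and 1091 ± 3.15 CPM (SD, n = 3). *Esrp1* was thus near 0 between genes of 607 CPM or more in both lines. Of the 18 rows that passed around the 3 genes, 15 were higher in UN-SCC680. With the scaling on unchanged positions, 16 passed and 8 were higher, so this balance depended on the scaling.

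**Figure D4:**
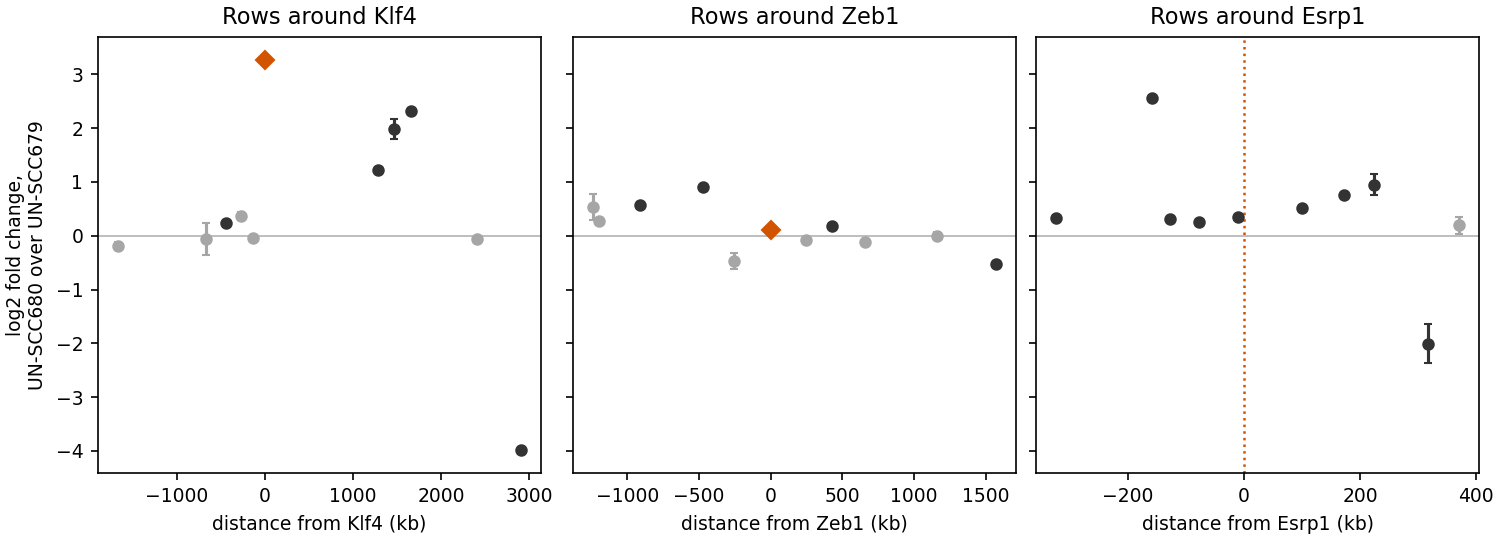
Log2 fold change of UN-SCC680 over UN-SCC679 (vertical axis, bars give the standard error) against the distance in kb from *Klf4*, *Zeb1* and *Esrp1* for the 5 nearest tested rows at unchanged positions on each side, dark gray where the adjusted p-value was under 5e-05. Orange diamonds are *Klf4* at 3.26 and *Zeb1* at 0.10, and the dotted line is the place of *Esrp1*, which was too low to be tested.

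The genes most like *Klf4* were found by the Euclidean distance between log2 CPM values over the 6 libraries, centred per gene, among 267 genes at unchanged positions. They were *Car9*, *Trp53inp1*, *Gm11816*, *Ptpn3* and *Abca1*, at distances of 0.31, 0.86, 1.14, 1.14 and 1.16. *Car9* encodes a carbonic anhydrase induced by hypoxia. It went from 8.41 ± 1.23 to 83.7 ± 5.74 CPM (SD, n = 3), a log2 fold change of 3.30 beside the 3.26 of *Klf4*. *Ptpn3*, a protein tyrosine phosphatase, is also one of the 10 rows around *Klf4*, and *Trp53inp1*, a target of p53, one of those around *Esrp1*. *Gm11816* had 2 counts in UN-SCC679 and is the least certain of the 5. The genes most like *Zeb1* were *Tnpo3*, *Ubap2*, *Esco1*, *Smo* and *Bag1*, at distances of 0.05 to 0.08, all with log2 fold changes between 0.05 and 0.11. With the scaling on unchanged positions, which lowered all rows, these small values turned below 0. With 3 libraries in each of 2 lines, likeness over 6 libraries mostly restates a like fold between the lines.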

How the data were processed

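PolyA RNA of UN-SCC679 and UN-SCC680 was measured in 3 libraries per line. The authors deposited whole-number read counts for each Ensembl gene, without normalization, beside exon positions and the summed exon length. Per the labels, featureCounts and mm10 were used, while the paper's methods name Trimmomatic, Kallisto and DESeq2. Columns were matched to samples by line and replicate number, and 0 were left unused. Identifiers matched symbols for 31021 of 55359 rows. The reference positions were those of RefSeq (GRCm38.p6), found through the symbol.

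Counts were filtered with filterByExpr, normalized by TMM over all kept rows and tested with edgeR's quasi-likelihood test without covariates (common biological coefficient of variation 3.12%). Standard errors were derived from the F statistic. The test was tested on simulated data with 8987 rows, where it recovered 71 of 100 rows changed 2-fold, 92 of 100 changed 4-fold and 0 others. All simulated rows shared 1 dispersion and far fewer rows changed than differed in the data. The 0 false calls therefore do not carry over to the data. Alternatives were DESeq2, limma-voom, other scalings, filters and thresholds, a block for the replicate number, and leaving out each library. Libraries of 1 line varied beyond sampling noise (chi-square per degree of freedom 1.11 to 1.63). The genes and lists were chosen with earlier results of these data known. Genes were named as list members at unchanged positions, as the nearest tested row on each side, and as the 5 most alike. In lists above 10 only the largest changes were named. Neighbors of *Epb41l4b*, *Cftr*, *Col1a2* and *Yap1*, and the further rows around *Klf4*, were added after their values were seen. Lists were matched also by older symbols. The values of 1 EMT inducer or partner are not reported here, and it stays in the counts. No gene of the squamous differentiation list (21 genes) lay at an unchanged position. The fits ran in R 4.3.3 with edgeR 4.0.16, DESeq2 1.42.0 and limma 3.58.1. Tables and plots were made in Python 3.11.15 with NumPy 2.4.6, pandas 2.3.3, SciPy 1.17.1 and matplotlib 3.10.9.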

Additional observations from a re-analysis of the deposited data

How the results depend on the processing

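The log2 fold change of *Klf4* was 3.08 with TMM over unchanged positions, and 3.25 to 3.29 with one library left out. That of *Zeb1* was -0.080 with TMM over unchanged positions, 0.071 by library size alone, 0.13 with no low-count filter and 0.090 to 0.12 with one library left out. With the replicate block they were 3.26 and 0.10, and 2523 rows differed, against 2736 without it. Same-numbered libraries had correlations of -0.0382, -5.24e-04 and -0.0218 between their deviations from the line means, which gave no sign of pairing. No fold of *Esrp1* is given under any setting, since both lines were at or under 3 counts.

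With an adjusted p-value under 0.05, 5248 rows differed and all 4 splicing regulators passed. With an absolute log2 fold change over 1 as well as 5e-05, 1024 rows, 5 mesenchymal genes, 3 EMT inducers and partners, 0 splicing regulators and 6 neighboring rows passed. Fewer calls follow from the stricter criterion. Splicing regulators passing were 3 by library size alone and 3 with TMM over unchanged positions. With TMM over unchanged positions, 834 of 2752 differing rows were higher in UN-SCC680, against 1371 of 2736, and *Smo* (-0.13), *Tnpo3* (-0.10), *Esco1* (-0.093), *Bag1* (-0.070) and *Ubap2* (-0.076) turned below 0. Of 580 values of the 39 tested list members, nearest rows and most alike genes, 565 kept direction and side of the threshold, 4 lost the call, 6 gained it and 5 reversed.

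List genes lying between the first and last unchanged rows of a chromosome, an alternative chosen after seeing the data, added *Tpm2* (log2 fold change 1.04) and *Fzd8* (2.47), both higher in UN-SCC680, to give 10 mesenchymal genes (median -0.89, against -1.42) and 8 inducers and partners. At this depth, values such as that of *Esrp1* are limited to about 0.7 CPM per library.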
